A study of Caenorhabditis elegans with 4 samples.

Results

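The regions described here are the CLIP peaks over transfer RNA genes of Caenorhabditis elegans. They were chosen by position, as the peaks of the deposited MSTR-1 and N2 tables that share at least 1 bp, on either strand, with a gene of biotype tRNA in the RefSeq gene table of assembly WBcel235. This gave 52 of 2664 MSTR-1 peaks (1.95%, exact 95% interval 1.46 to 2.55) and 11 of 310 N2 peaks (3.55%, 1.78 to 6.26). The MSTR-1 peaks lay over 56 of the 634 tRNA genes of that table and the N2 peaks over 13. The study used eCLIP, in which RNA crosslinked to a protein by ultraviolet light is sequenced after immunoprecipitation. MSTR-1 CLIP comprised 2 libraries, described as biological replicates, from worms carrying the allele F22D6.2(on49[MSTR-1::3xFLAG]) on chromosome I. It was set against 1 library of CLIP from untagged N2 worms and against 1 size-matched input library of the tagged genotype. The 4 libraries share stage and treatment, being lysates of whole young adults at 25 °C on standard NGM that received ultraviolet light at 1.2 mJ/cm2. In lysates of whole worms, fewer cells of a type and less RNA per cell cannot be told apart.

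Transfer RNAs are short, strongly folded RNAs that bring amino acids to the ribosome, each reading codons through its anticodon. RNA polymerase III makes them from promoters inside the gene, after which both ends are trimmed, CCA is added to the 3′ end and many bases are modified. Most animal genomes hold several identical copies of a tRNA gene, so a sequencing read often matches more than 1 locus. Because of their abundance, tRNAs are a common background in assays of RNA bound to proteins, and their folds and modified bases can stop reverse transcription.

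Each library column of the peak tables held reads divided by 1 size factor, and whole reads were recovered from it. Reads inside MSTR-1 peaks numbered 2438775 and 3592308 in the CLIP libraries, here called A and B because the columns do not say which replicate they hold, against 408945 for the input. Inside N2 peaks there were 934439 reads of N2 CLIP. Scaled reads below are the authors' values, and coordinates are theirs as deposited, set against WBcel235 genes without a stated build. Each MSTR-1 peak with an input read has a deposited fold above 1, which is the sum of both CLIP columns over the input and so a mean fold above 0.5, and tRNA genes further below the input are not listed, and the tables give no value for the tRNA genes without a peak.

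Every peak over a tRNA gene was nuclear. Chromosome X, which carries 276 of the tRNA genes, had 25 of the 52 MSTR-1 peaks over 26 genes (9.42% of its tRNA genes), and 7 of the 11 N2 peaks. On chromosome I 9 of 66 tRNA genes were under a peak (13.6%), and on chromosome II 2 of 57 (3.51%). Chromosomes III, IV and V lay between, at 9.38%, 8.45% and 8.97%. None of the 22 mitochondrial tRNA genes was under a peak of either table, although 7 MSTR-1 peaks were mitochondrial. The rule left out 209 genes annotated as tRNA pseudogenes, and 2 MSTR-1 peaks lay over such genes. Of the 52 peaks 26 were listed on the plus and 26 on the minus strand. The gene table gave no strand, and the 7 mitochondrial peaks were all listed on minus, while worm mitochondrial genes are known to be read from the plus strand. The 5′ and 3′ ends of the tRNAs were therefore not assigned, and gene ends are named by their order on the listed strand of the peak.

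The peaks were of about the size of a tRNA gene, 53 to 298 nt with a median of 85, where the median of all peaks was 165. Of the 52 peaks, 48 lay over 1 tRNA gene and 4 spanned 2. All 52 began before the gene end that comes first on the listed strand, by 2 to 36 nt. In 31 peaks every tRNA gene was covered over at least 90% of its length, and in 29 of these over all of it. In the other 21 at least 61.0% of a gene was covered. Among 30 peaks over a single gene of 72 to 74 nt, 21 held the whole gene and 9 ended 3 to 20 nt short of its far end. Over genes of 82 nt, 13 of 14 such peaks were 53 to 68 nt long, began 3 or 4 nt before the near end and ended 17 to 32 nt short of the far one (median 26). The exception was F02D10.t2, which was covered whole. All 3 genes of 84 nt were covered whole, as was B0285.t1 of 120 nt. The shortfall was at the far end in all 13, of which 7 were listed on plus and 6 on minus. Of the 61 genes of 82 nt 23.0% were under a peak, against 8.17% of 465 genes of 72 to 74 nt. Every gene was counted, also T02G6.t1, K11H3.t2 and C53C7.t2, all of 82 nt and with identical CLIP reads. The gene table gave no amino acids for tRNA genes, so the length classes are not named further.

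**Figure D1:**
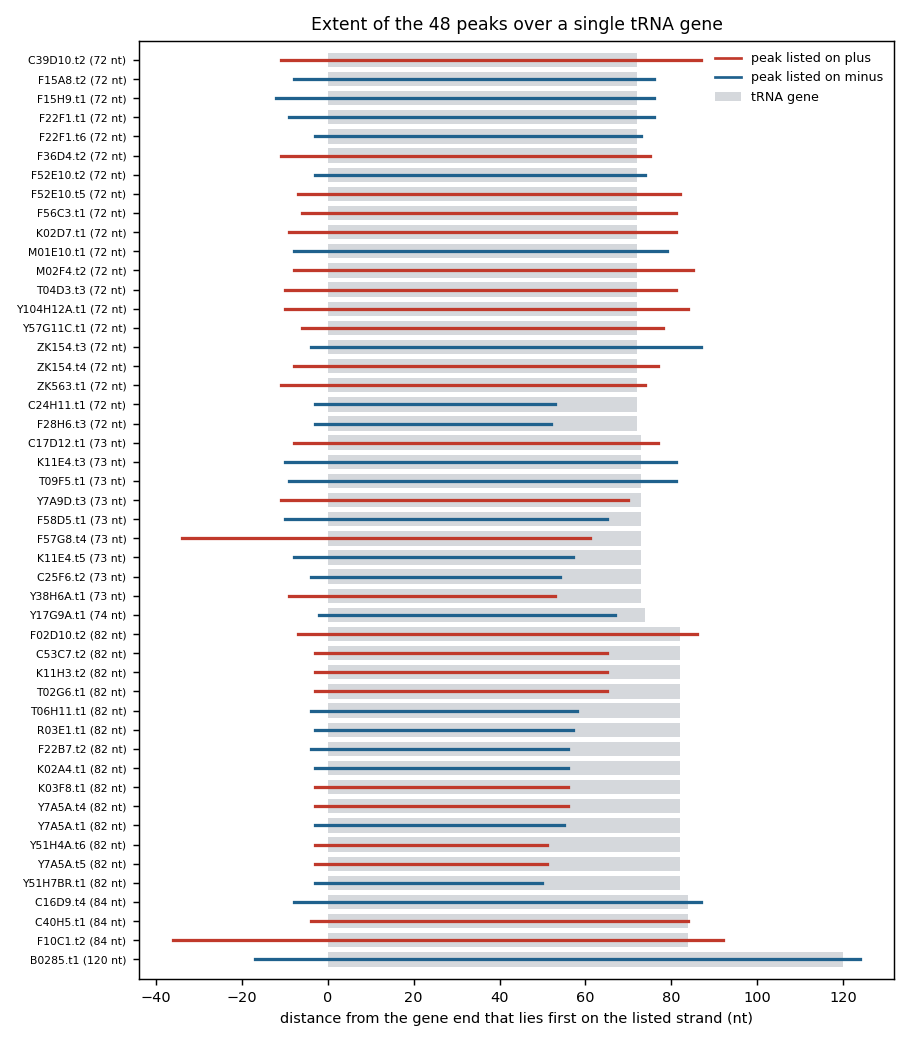
Extent of the 48 MSTR-1 peaks that lie over 1 tRNA gene, in nt from the gene end that comes first on the listed strand (x axis), with 1 row per gene sorted by gene length. Grey bars are the genes and coloured lines the peaks; lines over the 82 nt genes stop 17 to 32 nt before the far end except at F02D10.t2, while 21 of 30 lines over genes of 72 to 74 nt reach past both ends.

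The 4 peaks over 2 tRNA genes were 261 to 298 nt long and ran from the outer end of the one gene to or into the other. The genes were separated by 141 nt (C12C8.t5 and C12C8.t2), 142 nt (C12C8.t4 and C12C8.t3), 105 nt (F57G8.t3 and F57G8.t2) and 162 nt (K01A12.t5 and K01A12.t4). The first 3 of these peaks held both genes whole, and the peak at K01A12 held all of one gene and 66.7% of the other.

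Some loci had identical read numbers. The peak over C12C8.t5 and C12C8.t2 on chromosome I and the peak over F28H6.t3 on chromosome X both had 35 CLIP reads in library A, 63 in library B and 4 input reads. The peaks over T02G6.t1 on chromosome I and C53C7.t2 on chromosome X both had 74 and 118 CLIP reads and 50 input reads. The peak over K11H3.t2 on chromosome III had the same 74 and 118 CLIP reads but 31 input reads. All 3 of these genes are 82 nt long, and their peaks were 68 nt long and began 3 nt before the gene. The sources used here do not say how reads that match several loci were placed, so the value of a single tRNA gene may be that of a group of copies, and sums over loci may count a read more than once.

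Outside ribosomal RNA, tRNA genes held a large share of the reads in peaks, nearly all of it at 4 loci. Of the reads outside rRNA peaks, the 52 peaks held 44.6% in library A (exact 95% interval 44.4 to 44.8) and 37.6% in library B (37.4 to 37.8), against 48.1% in the input (47.8 to 48.3). The CLIP libraries thus differed from each other by more than library A differed from the input. The 4 deepest peaks, over M01E10.t1, F52E10.t5, C39D10.t2 and M02F4.t2, held 94.1% and 92.4% of the tRNA-gene reads of the CLIP libraries and 94.9% of those of the input. Without them the tRNA-gene share was 4.52% and 4.38% in CLIP and 4.51% in the input. These intervals cover counting error only.

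The balance among these 4 loci was not the same in CLIP and input. M01E10.t1 (72 nt, peak on chromosome III, 2032511 to 2032597) had 27296 and 31259 CLIP reads, against 34416 input reads. It therefore made up 33.4% (33.0 to 33.7) and 33.0% (32.7 to 33.3) of the reads of the 4 loci in CLIP, and 58.8% (58.4 to 59.2) in the input. F52E10.t5 (chromosome X, 16271289 to 16271377) made up 26.2% and 25.8% in CLIP and 16.8% in the input, with 21435 and 24448 reads against 9828. C39D10.t2 (chromosome X, 7898297 to 7898394) stood at 21.9% and 22.1% in CLIP and 13.7% in the input, with 17952 and 20984 reads against 7993. M02F4.t2 (chromosome X, 3035968 to 3036060) stood at 18.5% and 19.1% in CLIP and 10.7% in the input, with 15164 and 18079 reads against 6260. These shares do not rest on any scaling between libraries. At each locus the CLIP libraries were much closer to each other than to the input, which has no replicate.

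Each peak was then set against the input with limma, which was run on log2(scaled reads + 1) over all 2664 peaks with a variance trend and Benjamini-Hochberg adjustment. At an adjusted p under 0.05, limma called 9 tRNA-gene peaks above the input, 2 below it and 41 neither. That is 17.3% higher and 3.85% lower, where over all peaks 12.7% were called higher and 1.76% lower. All these regions were listed as MSTR-1 CLIP peaks with a deposited fold above 1 in the same 3 libraries. The calls are therefore made within regions already selected toward CLIP, and the p-values do not allow for that selection. edgeR's quasi-likelihood test on the recovered reads gave 6 higher and 1 lower, with 10.5% and 1.24% over all peaks. DESeq2's test on the same reads gave 3 higher and 0 lower (6 and 2 at an unadjusted p under 0.05), with 5.26% and 0.188% over all peaks. The split of calls depended on the scaling. TMM gave 5 higher and 6 lower (8.86% and 9.05% of all peaks), DESeq2's size factors also 5 and 6 (8.6% and 7.47%), and column totals, which ribosomal RNA dominates, 2 and 38 (2.14% and 51.1%). The median log2 change of the 52 peaks was 0.20, which was 0.25 below the median of all peaks. With a single input library, its variation was taken to equal that of CLIP, and the trend pools the spread over peaks of similar level, so no p-value here measures a spread between inputs. Without the trend limma called 0 tRNA-gene peaks and 0 of all peaks, with 7 tRNA-gene peaks higher and 0 lower at an unadjusted p under 0.05.

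**Figure D2:**
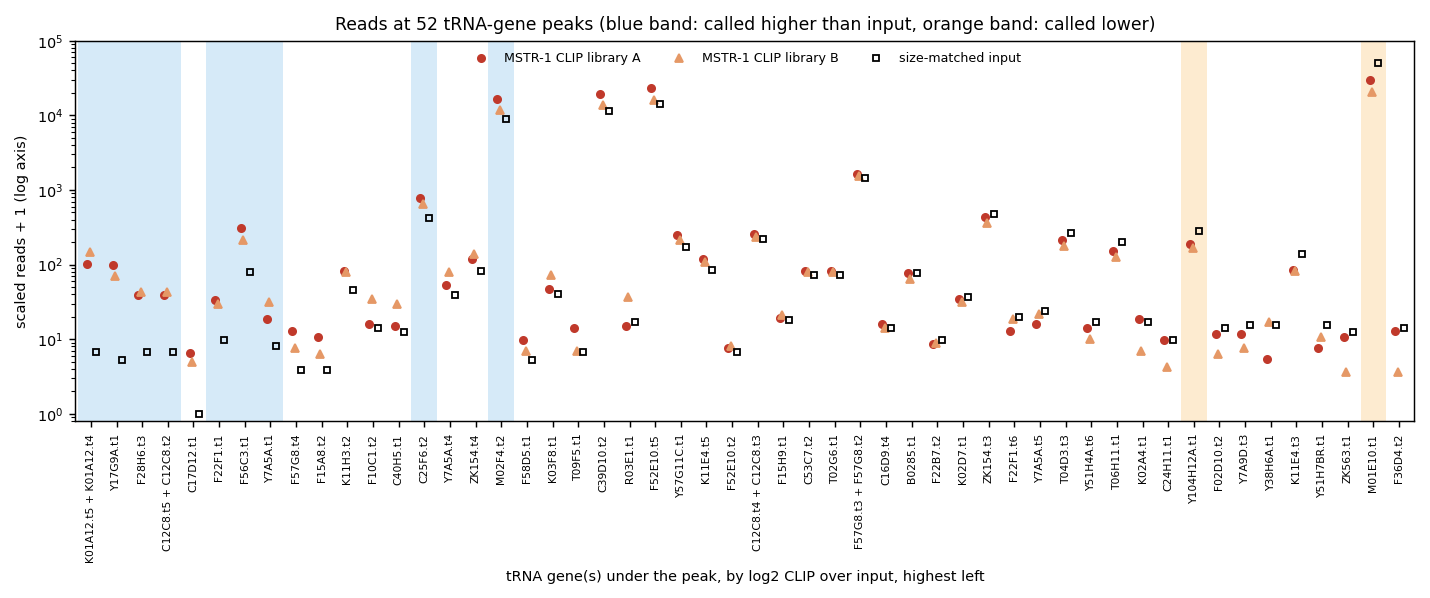
Scaled reads plus 1 (log axis) at each of the 52 tRNA-gene peaks in MSTR-1 CLIP library A (red circles), library B (orange triangles) and the size-matched input (open squares), ordered from the highest log2 change over the input on the left to the lowest on the right. Blue bands mark the 9 peaks called higher by limma and orange bands the 2 called lower; the 4 deepest peaks, over M02F4.t2, C39D10.t2, F52E10.t5 and M01E10.t1, stand at 9028 scaled reads or more in every library.

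The highest folds were at 2 loci with few input reads. The peak over K01A12.t5 and K01A12.t4 (chromosome X, 8623760 to 8624045), inside the span of the protein-coding gene K01A12.3, had 99.9 and 146.8 scaled CLIP reads, against 5.77 for the input. Both CLIP libraries were far above the input. The mean fold was 21.4 (95% interval from counting error 8.27 to 78.9; log2 change 4.17 with SE 0.37, adjusted p = 2.49e-26 in limma and 4.41e-14 in edgeR). The peak over Y17G9A.t1 (74 nt, chromosome IV, 4861761 to 4861829) had 98.8 and 70.1 scaled reads in CLIP and 4.33 in the input, again with both CLIP libraries far above it. Its mean fold was 19.5 (6.58 to 95.5; log2 change 3.98 with SE 0.42, adjusted p = 8.20e-19 in limma and 4.69e-10 in edgeR). These 2 loci stayed above the input at every scaling, with log2 changes of at least 2.24 and 2.09. Both are also N2 peaks.

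F56C3.t1, the pair C12C8.t5 and C12C8.t2, F28H6.t3 and F22F1.t1 were also more than 3-fold above the input. F56C3.t1 (chromosome X, 1379597 to 1379683), a 72 nt gene with no other gene under its peak, had 310.5 and 215.6 scaled reads in CLIP and 79.3 in the input (mean fold 3.32, 2.51 to 4.45; log2 change 1.69, SE 0.25, limma adjusted p = 1.14e-09). Both CLIP libraries were above the input, but with column totals the log2 change was -0.37 (limma adjusted p = 0.151). The identical peaks over C12C8.t5 and C12C8.t2 (chromosome I, 9327419 to 9327716) and over F28H6.t3 (chromosome X, 14135894 to 14135948) each had 38.0 and 41.3 scaled reads in CLIP and 5.77 in the input (mean fold 6.87, 2.60 to 25.7; log2 change 2.58, SE 0.50, limma adjusted p = 7.05e-06). Both calls were lost in DESeq2's test (adjusted p = 0.0545) and with column totals (log2 change 0.66, limma adjusted p = 0.268). Counted once, they leave 8 higher peaks. F22F1.t1 (chromosome X, 8149152 to 8149236) had 32.6 and 28.2 scaled reads in CLIP and 8.65 in the input (mean fold 3.51, 1.54 to 9.88; limma adjusted p = 0.010). Its call was lost in edgeR (adjusted p = 0.054), with TMM (limma adjusted p = 0.056) and with DESeq2's size factors (limma adjusted p = 0.062). DESeq2's test (adjusted p = 0.258) and column totals (log2 change -0.26, limma adjusted p = 0.699) did not keep it either.

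The other 3 higher calls were smaller or rested on few reads. C25F6.t2 (chromosome X, 5485474 to 5485531) had 782.8 and 651.3 scaled reads in CLIP and 424.0 in the input, a mean fold of 1.69 (1.49 to 1.92; log2 change 0.75 with SE 0.21, adjusted p = 0.0038 in limma and 0.022 in edgeR). M02F4.t2, 1 of the 4 deepest loci, had 16465 and 11845 scaled reads in CLIP and 9028 in the input (mean fold 1.57, 1.53 to 1.61; limma adjusted p = 0.025, edgeR adjusted p = 0.065). Its folds in libraries A and B alone were 1.82 and 1.31, outside that counting interval. Both calls were lost with TMM (limma adjusted p = 0.24 for C25F6.t2 and 0.53 for M02F4.t2). Y7A5A.t1 (82 nt, chromosome X, 15773554 to 15773611) had 17.4 and 30.8 scaled reads in CLIP and 7.21 in the input (mean fold 3.34, 1.36 to 10.6; limma adjusted p = 0.0498). It did not pass edgeR (adjusted p = 0.11), TMM or a pseudocount of 0.5 or 4. In all 9 higher peaks both CLIP libraries were above the input.

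The lower calls were at M01E10.t1 and Y104H12A.t1. M01E10.t1 had 29637 and 20480 scaled CLIP reads, against 49636 for the input, and both CLIP libraries were below the input. Its mean fold was 0.505 (0.498 to 0.512; log2 change -1.01 with SE 0.24, adjusted p = 0.00037 in limma and 0.00085 in edgeR). Libraries A and B alone stood at 0.597 and 0.413, outside that interval, which covers counting error only. With a deposited fold of 1.01 in the authors' deposited table, which sums the CLIP columns, this peak was the nearest of the tRNA-gene peaks to the lower end of that list, and what lay just below it is not listed. Y104H12A.t1 (72 nt, chromosome IV, 1388206 to 1388299, inside the span of the nuclear hormone receptor gene nhr-41) had 187.8 and 167.1 scaled reads in CLIP and 284.1 in the input (mean fold 0.625, 0.526 to 0.743; log2 change -0.68 with SE 0.24, adjusted p = 0.041 in limma and 0.058 in edgeR). Neither lower call passed DESeq2's test (adjusted p = 0.153 for M01E10.t1 and 0.144 for Y104H12A.t1). TMM and DESeq2's size factors each gave 6 lower calls. With both, T04D3.t3, ZK154.t3 and K11E4.t3 were also lower, at mean folds with the authors' scaling of 0.733, 0.841 and 0.603. With TMM 1 of the 6 was over a gene of 82 nt and is not among those named here.

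The 41 peaks without a call had mean folds of 0.537 to 3.21 with a median of 1.09, and 7 of them had an unadjusted limma p under 0.05. Of these 41, 20 had under 50 reads in the CLIP libraries together. F52E10.t5 and C39D10.t2 were among them in spite of their depth, with 23273 and 16018 scaled reads against 14174 at F52E10.t5 and 19492 and 13748 against 11528 at C39D10.t2. Both CLIP libraries were above the input at both loci. The mean folds were 1.39 (limma adjusted p = 0.20) and 1.44 (limma adjusted p = 0.11). The double peak over F57G8.t3 and F57G8.t2 (chromosome V, 16341594 to 16341854) had 1615 and 1524 scaled reads in CLIP and 1448 in the input, a mean fold of 1.08 with a counting interval of 1.01 to 1.16 (limma adjusted p = 0.81). C17D12.t1 was the only tRNA-gene peak without an input read, where 213 of all peaks had none. It had 5 and 6 CLIP reads, and their scaled mean was 1.08 times that of a floor of 3 input reads. That ratio leaves out counting error. With the observed input the counting interval began at 0.740, and the peak was not called (adjusted p = 0.71 in limma and 0.65 in edgeR).

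Several neighbouring tRNA genes had a peak each, and their folds are given side by side with counting intervals. At Y7A5A on chromosome X, Y7A5A.t1 stood at 3.34-fold (1.36 to 10.6), Y7A5A.t4 at 1.73-fold (1.14 to 2.72; 48 and 118 CLIP reads, 26 input reads) and Y7A5A.t5 at 0.784-fold (0.435 to 1.48; 14 and 32 CLIP reads, 16 input reads). The interval of Y7A5A.t4 overlapped both others, and those of Y7A5A.t1 and Y7A5A.t5 overlapped too. Only the first of these passed limma's threshold. At ZK154 the peaks over ZK154.t4 and ZK154.t3, both of 72 nt and listed on opposite strands, had mean folds of 1.59 (1.19 to 2.15; 108 and 212 CLIP reads, 56 input reads) and 0.841 (0.741 to 0.957; 396 and 547 CLIP reads, 325 input reads), and neither passed limma's threshold. At F22F1, F22F1.t1 stood at 3.51-fold (1.54 to 9.88) and F22F1.t6 at 0.790-fold (0.412 to 1.62; 11 and 27 CLIP reads, 13 input reads), with overlapping intervals. Intervals did not overlap at C12C8, with 6.87 (2.60 to 25.7) for C12C8.t5 and C12C8.t2 against 1.14 (0.949 to 1.37) for C12C8.t4 and C12C8.t3. Nor did they at K11E4, with 1.34 (1.01 to 1.81) for K11E4.t5 against 0.603 (0.470 to 0.778) for K11E4.t3. They overlapped at F57G8, with 3.21 (0.784 to 28.2) for F57G8.t4 against 1.08 (1.01 to 1.16) for F57G8.t3 and F57G8.t2. They also overlapped at F52E10, with 1.39 (1.36 to 1.42) for F52E10.t5 against 1.19 (0.388 to 4.86) for F52E10.t2. Differences between 2 peaks were not tested.

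Counts of calls within groups of the 52 peaks are to be read against the 12.7% of all peaks that limma called higher and the 1.76% it called lower, and they too moved with the scaling. Of 34 peaks over genes of 72 to 74 nt 8 were higher and 2 lower (6 and 1 in edgeR, 5 and 5 with TMM, 2 and 22 with column totals). Of 14 over genes of 82 nt 1 was higher and 0 lower (0 and 0 in edgeR, with 3 at an unadjusted p under 0.05, 0 and 1 with TMM, 0 and 13 with column totals). The median log2 change was 0.42 for 72 to 74 nt and -0.01 for 82 nt. Of 31 peaks holding their genes whole 5 were higher and 2 lower (3 and 1 in edgeR, 3 and 5 with TMM), and of the 21 others 4 were higher and 0 lower (3 and 0 in edgeR, 2 and 1 with TMM). On chromosome X 7 of 25 were higher and 0 lower (4 and 0 in edgeR, 3 and 3 with TMM, 1 and 17 with column totals). On the autosomes 2 of 27 were higher and 2 lower (2 and 1 in edgeR, 2 and 3 with TMM, 1 and 21 with column totals). These splits were not tested.

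The CLIP libraries differed from each other at tRNA genes about as much as elsewhere. The median absolute difference between libraries A and B on the log2 scale was 0.47 over the 52 peaks and 0.48 over all peaks. Library A had the higher scaled value at 35 of 52 tRNA-gene peaks (67.3%), against 51.4% of all peaks. Library A was higher at 26 of 34 peaks over genes of 72 to 74 nt and 7 of 14 over genes of 82 nt, at 24 of 31 peaks holding their genes whole and 11 of the 21 others, and at 15 of 25 on chromosome X and 20 of 27 on the autosomes. These splits overlap and were not tested. The libraries differed more than 2-fold at 10 peaks. The largest gap with library A higher was 4.56-fold, at F36D4.t2 (11 and 4 reads), and the largest with library B higher was 3.62-fold, at Y38H6A.t1 (4 and 24 reads). Both rest on few reads.

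Most of the tRNA genes under peaks also lay in another annotated gene. Of the 52 peaks 20 overlapped the span of a protein-coding gene, 18 overlapped other non-coding loci only, and 14 overlapped tRNA genes alone. In 18 of the 20 the tRNA gene was inside the span of the protein-coding gene. The gene table gives spans without exons, so exon and intron were not told apart. Of the 20 host genes 18 had no other MSTR-1 peak anywhere in their span. The exceptions were vab-10, a spectraplakin gene with 13 other peaks of at most 19 reads in library A, against 74 at its tRNA gene T02G6.t1, and eps-8, with 1 other peak of 1 read in library A against 231 at Y57G11C.t1. The CLIP reads at T02G6.t1 were identical to those at K11H3.t2 and C53C7.t2, so they may not come from the vab-10 locus. The non-coding genes under the peaks were mostly small loci around the tRNA gene itself, 34 of class ncRNA with a length of 67 to 217 nt. Such loci are common over tRNA genes, since 34 of 56 tRNA genes under peaks (60.7%) and 352 of all 612 nuclear tRNA genes (57.5%) carried one. A protein-coding span overlapped 21 of the 56 tRNA genes under peaks (37.5%) and 294 of all 612. Within protein-coding spans 2 of 20 peaks were higher and 1 lower (2 and 0 in edgeR, 2 and 2 with TMM). With a non-coding locus only 2 of 18 were higher and 1 lower (0 and 1 in edgeR, 0 and 2 with TMM). Over tRNA genes alone 5 of 14 were higher and 0 lower (4 and 0 in edgeR, 3 and 2 with TMM). Over all peaks the shares were 12.7% and 1.76%, and the difference between these groups was not tested.

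Over snoRNA and snRNA genes, whose RNAs guide rRNA modification and splice messengers, 5 of 40 peaks were higher and 1 lower, with a median log2 change of -0.09. These counts were 4 and 0 in edgeR, 3 and 23 with column totals and 4 and 12 with TMM. Over rRNA genes 15 of 21 were higher and 0 lower, with a median of 3.20 (15 and 0 in edgeR, 14 and 1 with TMM, 8 and 5 with column totals). The limma shares over all peaks were 12.7% and 1.76%. In library A alone the median was 0.18 for tRNA genes, 0.06 for snoRNA and snRNA genes and 3.41 for rRNA genes, and in library B alone 0.15, -0.15 and 2.62. Both CLIP libraries were above the input at 31 tRNA-gene peaks (59.6%, against 53.0% of all peaks) and both below it at 16 (30.8%, against 22.0%). No test of the difference between classes was made.

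**Figure D3:**
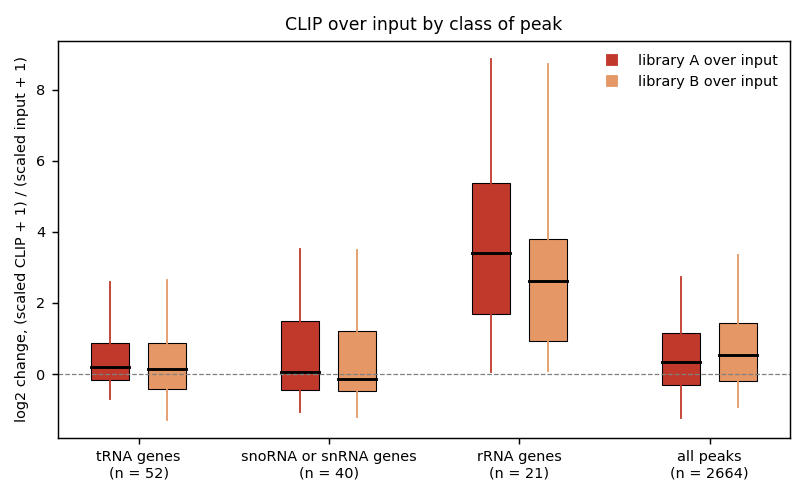
Log2 change of MSTR-1 CLIP over the input, (scaled CLIP reads + 1) over (scaled input reads + 1), for library A (red) and library B (orange) in 4 classes of peak: 52 over tRNA genes, 40 over snoRNA or snRNA genes, 21 over rRNA genes, and all 2664. Boxes run from the lower to the upper quartile with the median as a line, and whiskers from the 5th to the 95th percentile; the tRNA-gene medians of 0.18 and 0.15 lie below those of all peaks, 0.35 and 0.52.

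CLIP from untagged N2 worms shows what the immunoprecipitation recovers without the tagged protein. All 11 tRNA-gene peaks of the N2 table overlapped a tRNA-gene peak of the MSTR-1 table on the same strand, so 11 of 52 MSTR-1 tRNA-gene peaks had an N2 peak (21.2%, 11.1 to 34.7), where 8.75% of all MSTR-1 peaks had one. At all 11 pairs the input reads were equal in the 2 tables, where this held for 74 of all 227 pairs. The tRNA-gene peaks with an N2 peak were deeper, with medians of 108 and 224 reads in libraries A and B against 14 and 43 for those without one, and an N2 peak had at least 11 reads. Of the 9 MSTR-1 tRNA-gene peaks called higher, 4 had an N2 peak, over K01A12.t5 and K01A12.t4, Y17G9A.t1, F56C3.t1 and M02F4.t2. The other 5, over F22F1.t1, C25F6.t2, Y7A5A.t1, F28H6.t3 and the pair C12C8.t5 and C12C8.t2, had none. No N2 peak lay over M01E10.t1 or F52E10.t5, 2 of the 4 deepest loci. N2 values are not given for loci without an N2 peak, and the lowest N2 fold among the 11 peaks was 1.09. A missing N2 peak therefore does not show that N2 CLIP recovered few reads there.

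Folds over the input are given side by side, since the tables were scaled separately, share the input and hold 1 N2 library. At K01A12.t5 and K01A12.t4 the mean MSTR-1 fold was 21.4 and the N2 fold 35.8 (13.1 to 136; 50 N2 reads and 4 input reads). At Y17G9A.t1 they were 19.5 and 12.4 (3.41 to 67.9; 13 N2 reads and 3 input reads), and at F56C3.t1 3.32 and 3.02 (2.05 to 4.45; 58 and 55 reads). These were the only 3 of 11 N2 tRNA-gene peaks at 2-fold or more (27.3%, against 74.8% of all N2 peaks, where the 29 without an input read are counted in). M02F4.t2 stood at 1.57 in MSTR-1 CLIP and 1.29 in N2 CLIP (1.23 to 1.35; 2815 and 6260 reads), and C39D10.t2 at 1.44 and 1.11 (1.07 to 1.16; 3108 and 7993 reads). At the remaining 6 loci neither fold reached 2. The MSTR-1 fold was 1.36 and the N2 fold 1.09 at Y57G11C.t1, 1.52 and 1.17 at K03F8.t1, and 1.73 and 1.21 at Y7A5A.t4. They were 1.14 and 1.28 at C12C8.t4 and C12C8.t3, 1.34 and 1.58 at K11E4.t5, and 1.59 and 1.64 at ZK154.t4. The median N2 fold of the 11 was 1.29, against 4.64 over all N2 peaks with an input read.

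**Figure D4:**
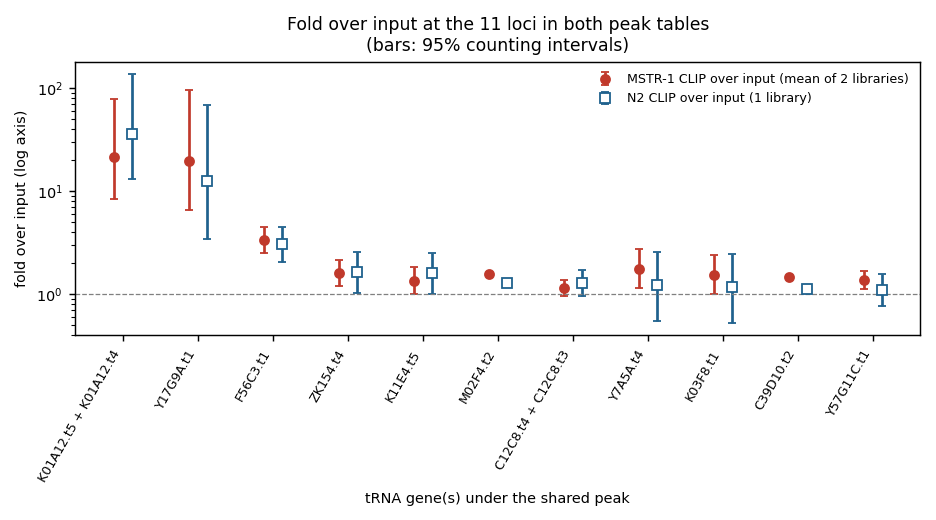
Fold over the input (log axis) at the 11 loci where a tRNA-gene peak is listed in both tables, as the mean of both MSTR-1 CLIP libraries (filled red circles) and for the N2 CLIP library (open blue squares), with 95% intervals from counting error. Loci run from the highest N2 fold on the left (35.8 at K01A12.t5 and K01A12.t4) to the lowest (1.09 at Y57G11C.t1), and the MSTR-1 and N2 intervals overlap at every locus except M02F4.t2 and C39D10.t2. The intervals leave out the spread between libraries A and B. Alone, these stood at 1.82 and 1.31 at M02F4.t2, and at 1.69 and 1.19 at C39D10.t2. Library B lies inside the N2 interval at M02F4.t2 and above it at C39D10.t2.

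The balance of reads among these 11 loci needs no scaling. K01A12.t5 and K01A12.t4 made up 0.268% (0.216 to 0.328) and 0.546% (0.477 to 0.622) of them in MSTR-1 libraries A and B, and 0.801% (0.595 to 1.05) in N2 CLIP, against 0.0271% (0.00739 to 0.0694) in the input. Y17G9A.t1 made up 0.265% and 0.261% in MSTR-1 CLIP and 0.208% (0.111 to 0.356) in N2 CLIP, against 0.0203% (0.00419 to 0.0594) in the input. F56C3.t1 made up 0.832% and 0.802% in MSTR-1 CLIP and 0.929% (0.706 to 1.20) in N2 CLIP, against 0.373% (0.281 to 0.485) in the input. At these 3 loci the shares in the tagged and the untagged immunoprecipitation both lay above the input share, with intervals that did not overlap it. They are the same 3 loci that stood at 2-fold or more in N2 CLIP, on the same reads, and all 11 loci were listed as peaks for both. The shares are therefore no separate evidence. For Y17G9A.t1 and F56C3.t1 the N2 share was within the counting interval of the MSTR-1 libraries or overlapped it, and for K01A12.t5 and K01A12.t4 it was above library A and overlapped library B. M02F4.t2 and C39D10.t2 held most of the reads of the 11 loci. M02F4.t2 made up 44.1% and 44.1% in MSTR-1 CLIP and 45.1% (43.9 to 46.3) in N2 CLIP, against 42.4% in the input. C39D10.t2 made up 52.2% and 51.2% in MSTR-1 CLIP and 49.8% (48.5 to 51.0) in N2 CLIP, against 54.2% in the input. The N2 interval overlapped those of both MSTR-1 libraries at M02F4.t2. At C39D10.t2 it overlapped that of library B and lay below that of library A.

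Some genes that work with tRNAs had peaks of their own, and none of those peaks was called higher. Of a list of 54 such genes 50 were found by name and 8 had a peak of their own, 18 peaks in all. The share of all genes with a peak of their own was not counted. Of the 18 peaks limma called 0 higher and 2 lower, with 12.7% and 1.76% over all peaks. Among 37 aminoacyl-tRNA synthetases, the enzymes that charge tRNAs, 5 had own peaks (dars-1, fars-1, iars-1, mars-1 and nars-1), and 0 of their 7 peaks passed. The peak over fars-1, a phenylalanyl-tRNA synthetase subunit, had 0 and 17 CLIP reads and 1 input read, and that over iars-1, the isoleucyl enzyme, 2 and 23 CLIP reads and 2 input reads, so in both the reads were nearly all in library B. Among 13 genes of tRNA export, end processing, splicing and modification only tut-1, which acts in thiolation of the wobble uridine, had a peak, with 0 and 38 CLIP reads and 4 input reads (limma adjusted p = 0.90). The elongation factor genes eef-1A.1 and eef-1A.2, whose protein carries charged tRNA to the ribosome, had 10 own peaks. The 2 lower peaks were both over eef-1A.1, at 364 and 545 CLIP reads with 419 input reads (mean fold 0.622, limma adjusted p = 0.014) and at 333 and 463 CLIP reads with 421 input reads (mean fold 0.548, limma adjusted p = 0.00092). All 7 peaks over eef-1A.2 missed the threshold, with mean folds of 0.709 to 1.26.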

How the data were processed

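The data were 2 peak tables from 4 eCLIP libraries. The tools named in the submitters' processing notes are STAR, cutadapt, deepTools and UMI-tools. The sources used here give no versions, peak caller, thresholds, handling of reads with several matches or genome build. The deposited library columns are a signal, reads per peak divided by 1 size factor per library. All values lay within 0.02 of whole multiples of 1 step per library, which gave the reads. The N2 column starts at 11 reads, and the step found for it was the inverse of its table's input step. No count test was run on the N2 column. The deposited fold is a ratio, the sum of both CLIP columns over the input in the MSTR-1 table.

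Peaks were intersected with RefSeq genes of WBcel235 at 1 bp or more, without piRNA genes. limma 3.58.1 (R 4.3.3) was fitted to log2(value + 1) over all 2664 peaks. edgeR 4.0.16 and DESeq2 1.42.0 on the recovered reads, other scalings, pseudocounts of 0.5 and 4 and a minimum of 20 reads were alternatives. Intervals of folds are exact conditional binomial intervals of reads, taken at the observed balance of libraries A and B. They cover counting error only and leave out the spread between these libraries. The limma and edgeR fits were tested on simulated data with 200 of 2664 peaks raised in CLIP. limma called 8.96% of 2-fold, 52.2% of 4-fold and 93.9% of 8-fold rises. edgeR called 1.49%, 26.9% and 77.3% of them. Calls among the unchanged peaks numbered 7 in limma and 0 in edgeR. Most 2-fold changes were thus missed, so a peak without a call may still differ from the input.

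Named peaks were those holding at least 90% of a tRNA gene, those called, those with an N2 peak and the 5 deepest. Others named (T02G6.t1, C53C7.t2, K11H3.t2, Y7A5A.t5, Y38H6A.t1, F57G8.t4) were chosen after their values were seen. Members and lists were chosen with earlier results of these data known. Comparisons of strand with the gene and searches for promoter motifs were not made.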

Additional observations from a re-analysis of the deposited data

How the results depend on the processing

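The counts of 9 higher and 2 lower tRNA-gene peaks stayed within 1.5 times under both pseudocounts, the minimum of 20 reads and the rule of 50% cover. Higher calls numbered 5 with DESeq2's size factors, 5 with TMM, 2 with column totals, 3 in DESeq2's test, 0 in limma without a trend and 5 among peaks over tRNA genes alone. Counting peaks of identical CLIP reads once, chosen after seeing the data, gave 8. Lower calls numbered 6, 6, 38, 0, 0 and 0 under the same 6 settings, and 1 in edgeR. DESeq2's test had 2 lower at an unadjusted p under 0.05. The median log2 change of 0.20 was -0.17 with DESeq2's size factors, -0.21 with TMM, -1.74 with column totals, 0.17 with a pseudocount of 4 and 0.35 over tRNA genes alone, and 0.15 to 0.18 with 1 CLIP library alone. Over all peaks these scalings moved the median by -0.36, -0.39 and -1.94. For N2 the median of 0.36 was -2.69 with column totals. The overlap with N2 was 11 also with 50% of the peak shared, on either strand and with 50% of a gene covered. No paired analysis was possible because the input and N2 CLIP have 1 library each. The alternative with strand was not run.

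The log2 change of 21 named peaks turned negative with column totals. It was -1.89 for C12C8.t4 and C12C8.t3, -1.83 for F15H9.t1, -1.20 for F10C1.t2, -1.49 for K03F8.t1, -1.64 for Y57G11C.t1, -1.85 for C16D9.t4, -1.32 for T09F5.t1, -1.97 for F57G8.t3 and F57G8.t2, -0.37 for F56C3.t1, -1.45 for M02F4.t2, -0.65 for F15A8.t2, -1.33 for C25F6.t2, -1.41 for ZK154.t4, -1.58 for C39D10.t2, -0.26 for F22F1.t1, -1.20 for C40H5.t1, -1.65 for K11E4.t5, -1.30 for Y7A5A.t4, -0.37 for Y7A5A.t1, -1.64 for F52E10.t5 and -1.62 for F52E10.t2. With TMM it was -0.25 for C12C8.t4 and C12C8.t3, -0.26 for F15H9.t1, -0.0020 for Y57G11C.t1, -0.30 for C16D9.t4, -0.32 for F57G8.t3 and F57G8.t2, -0.017 for K11E4.t5 and -0.16 for F52E10.t2. With DESeq2's size factors it was -0.21 for C12C8.t4 and C12C8.t3, -0.23 for F15H9.t1, -0.26 for C16D9.t4, -0.28 for F57G8.t3 and F57G8.t2 and -0.13 for F52E10.t2. The cause was not tested. Of the 41 uncalled peaks 20 had under 50 CLIP reads, and folds with few input reads have wide counting intervals.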
